A study of Homo sapiens with 12 samples.

Results

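The 3 genes CPS1, ASS1 and HPD encode enzymes of amino acid metabolism, and this account follows the RNA counted inside them. They were chosen from earlier results on the same libraries, in which the introns of all 3 were lower after an inhibitor of the mitotic kinase MPS1. The members are the rows of the deposited count table that lie wholly inside the annotated body of a gene, on its strand: 322 rows in CPS1, 53 in ASS1 and 52 in HPD. Those 427 rows are part of a table of 5254113 rows, and the 3 genes are among 31686 annotated genes with at least 1 row inside. Of the 427 rows, 133 had enough reads to be tested one by one (81 in CPS1, 35 in ASS1 and 17 in HPD), and 60 had no read in any library.

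The samples were NCI-H1944 cells, an established human lung adenocarcinoma line. RNA bound by J2, an antibody against double-stranded RNA, was sequenced from cells with a wild-type genotype, labelled SCR, and from cells with an IFNAR1 knockout genotype, labelled IFNAR1sg. IFNAR1 encodes 1 chain of the type I interferon receptor, and whether the knockout cells were 1 clone or a mixture was not given in the sources used here. Each genotype had 3 groups of 2 libraries, 12 libraries in all. The DMSO group had the solvent for 48 h, a washout and 24 h of further culture. The MPS1i group had 100 nM of the MPS1 inhibitor BAY-1217389 for those 48 h, followed by the washout and 24 h without the drug. The IFNb group had recombinant interferon beta at 5 ng/ml in the 24 h. Input RNA was not analysed here, so the amount of a transcript and the share of it bound by J2 cannot be told apart. In bulk libraries, fewer cells that transcribe a gene and less RNA per cell cannot be told apart either.

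CPS1, carbamoyl phosphate synthetase of the mitochondria, joins ammonia and bicarbonate in the opening step of the urea cycle. ASS1, argininosuccinate synthase, joins citrulline and aspartate in the cytosol, which is how cells make arginine. HPD, 4-hydroxyphenylpyruvate dioxygenase, acts in the breakdown of tyrosine and makes homogentisate. All are best known from liver, and CPS1 is also known from lung adenocarcinomas that have lost STK11, where carbamoyl phosphate can feed pyrimidine synthesis.

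In the GENCODE annotation of GRCh38, CPS1 (ENSG00000021826.15) lies at chr2:210477682-210679107 on the plus strand, ASS1 (ENSG00000130707.17) at chr9:130444929-130501274 on the plus strand, and HPD (ENSG00000158104.11) at chr12:121839527-121863596 on the minus strand. Over the 12 libraries their rows held 268343, 112898 and 46187 reads. Most of those reads lay in a small number of rows with 1 or more exonic bases: 18 rows with 80.6% of the reads in CPS1, 7 rows with 70.8% in ASS1 and 6 rows with 87.2% in HPD. Of these, 17, 7 and 6 rows shared at most 2 bases. An example is a row of HPD that is 3 bases long, chr12:121847050-121847052, with a mean of 478 CPM, the read count scaled to library size. No read fits into 3 bases, so a read counted there also lay in the neighbouring sequence. Rows of this kind are called exon-sharing here and are kept apart from distal intronic rows, which lie over 150 bp from any exon. The distal rows numbered 236 in CPS1, 24 in ASS1 and 30 in HPD, with 24793, 7300 and 1744 reads. Rows that share no exon base but lie within 150 bp of one (68, 22 and 16) form another class.

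The 12 libraries had 3739443 to 7430687 counted reads. The summed rows of IFNAR1 stood at 11.7 to 18.0 CPM in the 6 SCR libraries and at 5.44 to 8.67 CPM in the 6 IFNAR1sg libraries, with no overlap. The 2 SCR IFNb libraries were unlike the rest. Reads fell in 295367 and 296843 of their rows against 566704 to 935974, and exon-sharing rows took 49.6% and 47.9% of their reads against 33.2% to 39.7%. Every IFNb value in SCR below rests on these 2 libraries, and the part of this difference in those values was not tested. Medians over all gene sums are therefore given beside most of the members' changes.

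Sequences at the starts of the members are shown because their introns were lower together with MPS1i and because only some annotated starts carried reads. They are RefSeq windows of GRCh38.p14, 300 bases long and ending 50 bases past an annotated start, and the table held 3 windows for CPS1, 2 for ASS1 and 2 for HPD. In CPS1 the stretch before the transcript start at 210556538 had 30.7 reads per kb, whereas the stretch from there to 210593365 had 2110 and the rest of the gene 2195. In HPD only 4 reads lay beyond the start at 121858859, against 2389 reads per kb in the remainder of the body. The table held no window at the CPS1 start 210556538, from which most of its reads follow, and the CPS1 window shown is at a later start inside the gene. The HPD window shown lies at the edge of the part with reads. The ASS1 window spans the annotated start of the gene, and reads before and after that start were not compared. Capitals mark matches to the motifs searched, and the HPD window is read on the minus strand.
ASS1, chr9:130444711-130445010: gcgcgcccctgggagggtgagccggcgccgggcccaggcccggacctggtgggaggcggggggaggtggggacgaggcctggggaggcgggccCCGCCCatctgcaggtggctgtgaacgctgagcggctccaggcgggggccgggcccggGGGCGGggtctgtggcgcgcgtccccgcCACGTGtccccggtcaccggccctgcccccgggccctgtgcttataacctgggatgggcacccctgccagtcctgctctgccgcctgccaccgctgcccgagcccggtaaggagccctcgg
HPD, chr12:121858810-121859109: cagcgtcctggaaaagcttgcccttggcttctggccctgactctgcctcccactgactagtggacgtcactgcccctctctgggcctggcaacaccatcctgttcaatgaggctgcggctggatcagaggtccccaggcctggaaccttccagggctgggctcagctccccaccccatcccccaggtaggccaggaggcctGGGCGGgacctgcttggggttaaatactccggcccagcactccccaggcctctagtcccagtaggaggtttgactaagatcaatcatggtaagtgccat
CPS1, chr2:210593105-210593404: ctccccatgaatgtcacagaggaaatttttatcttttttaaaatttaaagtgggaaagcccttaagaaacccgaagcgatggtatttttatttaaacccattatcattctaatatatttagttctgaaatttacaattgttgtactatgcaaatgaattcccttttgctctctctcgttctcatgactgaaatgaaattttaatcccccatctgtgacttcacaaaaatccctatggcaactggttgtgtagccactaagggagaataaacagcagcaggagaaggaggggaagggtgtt

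The ASS1 window, with 78.3% G and C, held the E-box CACGTG at -71 and the GC box GGGCGG at -99 on the strand of the gene and at -157 on the opposite strand, counted from the first transcribed base as 0. The HPD window, with 61.3% G and C, held 1 GC box at -49. The CPS1 window shown, with 36.7% G and C, held none of the motifs searched. Of the other CPS1 windows, the one at chr2:210519468-210519767 held CACGTG at -46 and CCAAT at -14, and the one at chr2:210477435-210477734 held none. The other ASS1 window, chr9:130444457-130444756, held 2 GC boxes, and the other HPD window, chr12:121888562-121888861, held 1 E-box and 3 GC boxes. Both strands were searched for the E-box CACGTG, the TATA box TATAAA, the CCAAT box, the GC box GGGCGG, the cyclic AMP response element TGACGTCA and the core of the interferon-stimulated response element, none of which contains another. Of 35116 RefSeq windows of this length, 7.26% held the E-box, 11.5% the TATA box, 34.6% the CCAAT box, 45.0% the GC box, 1.85% the cyclic AMP response element and 3.57% the interferon-stimulated core. A match describes the letters of a window and is not a measured binding site.

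With MPS1i, the contrast used to choose the genes, the distal introns of all 3 members were lower in both genotypes, and these values are given as a description with no test. In CPS1 the distal rows summed to 567 and 521 CPM in SCR DMSO, compared with 293 and 288 after MPS1i. In IFNAR1sg they summed to 562 and 545 CPM in DMSO and to 241 and 236 in MPS1i. The MPS1i libraries lay below the DMSO libraries in each genotype without overlap. The CPS1 rows were not alike along the gene: of the 33 tested distal rows, the 4 before the start at 210556538 had a median log2 difference of 0.90 in SCR and 0.21 in IFNAR1sg, and the 29 from there on had -0.98 and -1.42. The ASS1 distal sum was 159 and 136 CPM in SCR DMSO against 50.4 and 51.4 in SCR MPS1i, and 176 and 202 in IFNAR1sg DMSO against 58.3 and 65.1 in IFNAR1sg MPS1i. The HPD distal sum, the smallest of the 3, was 29.7 and 37.6 CPM against 13.0 and 11.7 in SCR, and 34.5 and 47.0 against 11.3 and 16.5 in IFNAR1sg. Both members showed the same separation as CPS1. As log2 changes (± SE, n = 2 libraries per group) the CPS1, ASS1 and HPD sums differed by -0.91 ± 0.10, -1.54 ± 0.13 and -1.45 ± 0.21 in SCR, where the median of 14057 distal gene sums was -0.06. In IFNAR1sg they differed by -1.21 ± 0.10, -1.62 ± 0.12 and -1.55 ± 0.19, with a median of 0.06. Of all distal sums, 24.6% were called lower in SCR and 21.1% in IFNAR1sg.

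The exon-sharing rows of the same genes were not lower with MPS1i in SCR. Their sums in CPS1 were 3035 and 2932 CPM in SCR DMSO, compared with 4350 and 3988 after MPS1i, a log2 difference of 0.48 ± 0.10. HPD went from 496 and 410 to 698 and 595 CPM (0.51 ± 0.12), and ASS1 from 1245 and 1026 to 1335 and 1229 (0.17 ± 0.11), where the groups overlapped. The median of 5058 exon-sharing gene sums was 0.36. In IFNAR1sg the differences were 0.07 ± 0.10 for CPS1, -0.39 ± 0.11 for ASS1 and -0.04 ± 0.12 for HPD, with a median of 0.13.

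**Figure D1:**
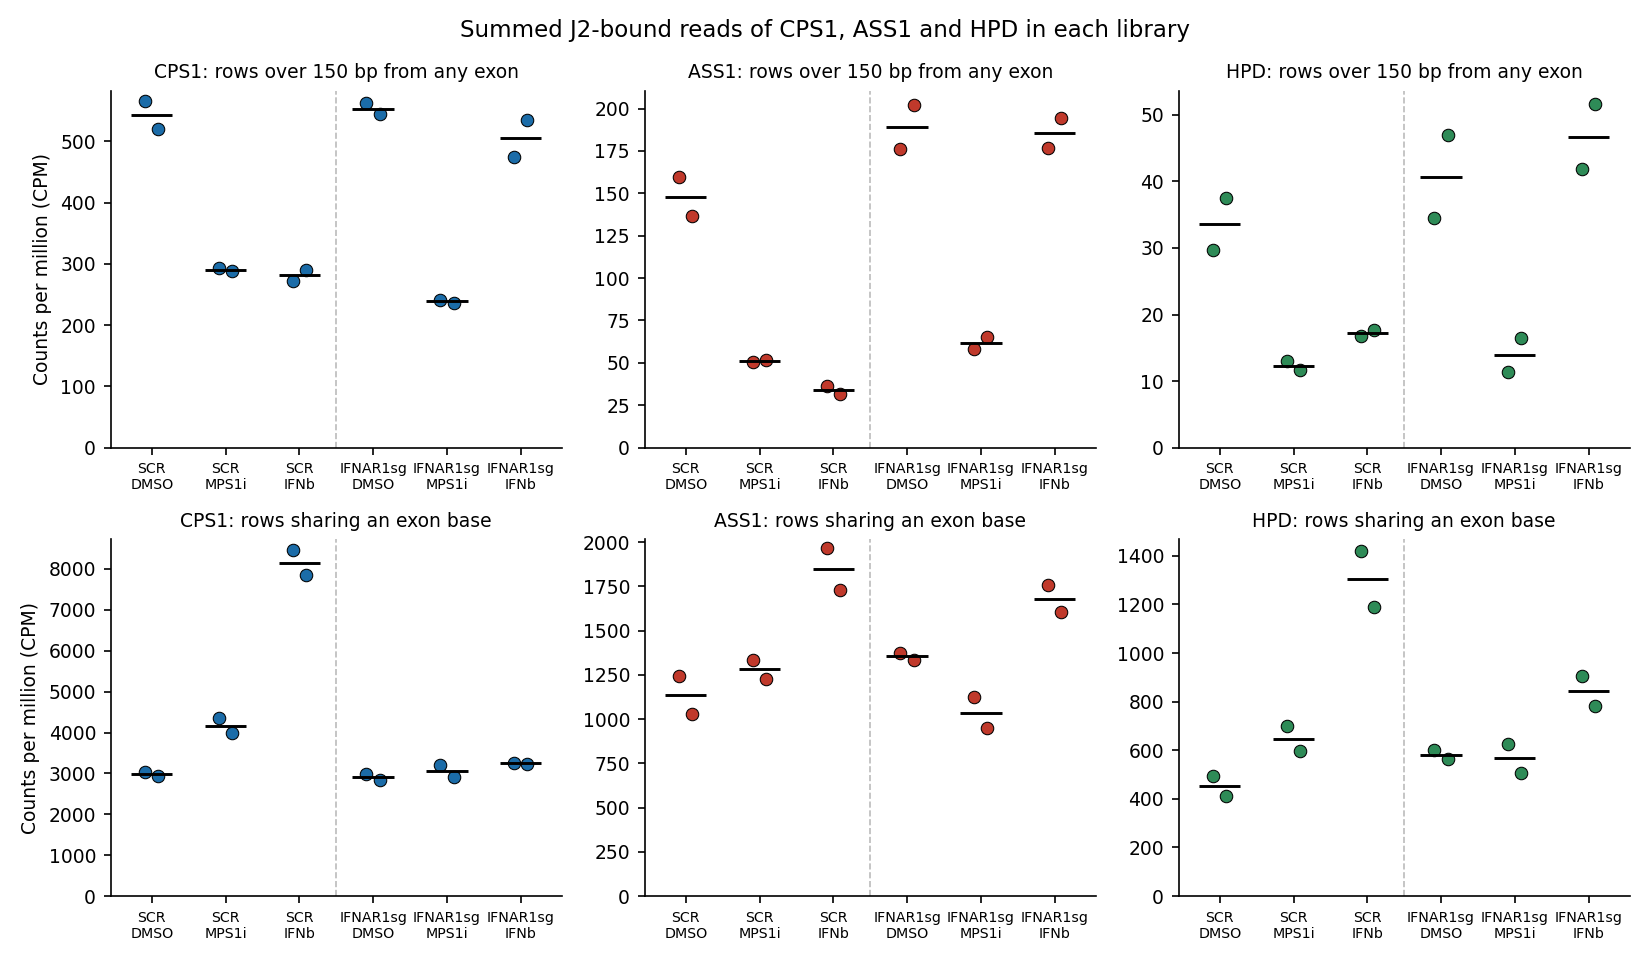
Each point is 1 library, the y axis is CPM (starting at 0), and the bar is the mean of the 2 libraries of a group. The upper panels show rows over 150 bp from any exon, which were low with MPS1i in both genotypes and low with IFNb in SCR; the lower panels show rows sharing an exon base, whose group mean was highest in SCR IFNb in each gene; in ASS1 1 IFNAR1sg IFNb library (1755 CPM) lay between the 2 SCR IFNb libraries.

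With IFNb, the distal introns of all 3 genes fell in SCR cells, while the exon-sharing rows of the same genes rose in the same libraries. This contrast shares the DMSO libraries with the one that chose the genes, so the intronic direction is not independent of the choice. The distal sum of CPS1 was 273 and 289 CPM in SCR IFNb, against 567 and 521 in SCR DMSO, a log2 change of -0.95 ± 0.10 (adjusted p = 2.39e-16, edgeR quasi-likelihood test with Benjamini-Hochberg adjustment over all distal sums, n = 2 libraries per group). That of ASS1 was 36.4 and 31.6 CPM against 159 and 136, a 4.35-fold fall (-2.12 ± 0.14, edgeR adjusted p = 2.99e-29). That of HPD was 16.7 and 17.7 CPM against 29.7 and 37.6 (-0.96 ± 0.22, edgeR adjusted p = 6.01e-05). The groups did not overlap in any of the 3 genes. The background was high: 45.6% of all distal sums were called lower, and their median change was -0.84. The share of distal sums with a lower change than the member was 45.2% for CPS1, 44.8% for HPD and 6.35% for ASS1.

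The exon-sharing sum of CPS1 was 8452 and 7857 CPM in SCR IFNb against 3035 and 2932 in SCR DMSO, a 2.73-fold rise (1.45 ± 0.10, edgeR adjusted p = 7.24e-19). For HPD it was 1419 and 1190 CPM against 496 and 410, a 2.88-fold rise (1.53 ± 0.12, edgeR adjusted p = 1.28e-16). For ASS1 it was 1967 and 1728 CPM against 1245 and 1026, a 1.63-fold rise (0.70 ± 0.11, edgeR adjusted p = 2.67e-07). In each gene both SCR IFNb libraries lay above all 10 other libraries, except in ASS1, where 1 library of IFNAR1sg IFNb with 1755 CPM lay between them. Of all exon-sharing sums, 55.1% were called higher, with a median of 0.76, so that ASS1 lay close to the median and CPS1 and HPD above it.

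The opposite directions show in the log2 ratio of distal to exon-sharing reads within each gene. For CPS1 the ratio was -2.42 and -2.49 in SCR DMSO and -4.95 and -4.76 in SCR IFNb, a change of -2.40 ± 0.19 (limma adjusted p = 3.17e-05). For ASS1 it went from -2.96 and -2.91 to -5.74 and -5.75 (-2.81 ± 0.22, limma adjusted p = 3.17e-05), and for HPD from -4.05 and -3.44 to -6.37 and -6.04 (-2.46 ± 0.36, limma adjusted p = 2.49e-04). Ratios of 72.9% of the 4262 genes with both kinds of row fell, with a median of -1.59. With each library centred on its median gene, the call of HPD was lost (-0.93, limma adjusted p = 0.0680).

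Summing all rows without an exon base, near rows included, gave -1.85 ± 0.09 for ASS1 (edgeR adjusted p = 5.03e-40) and -0.68 ± 0.14 for HPD (edgeR adjusted p = 1.02e-05). For ASS1 these sums were 727 and 667 CPM in SCR DMSO and 189 and 197 in SCR IFNb, and for HPD 101 and 108 against 62.1 and 68.5. CPS1, with 1071 and 1005 CPM against 929 and 883, changed by -0.20 ± 0.08 (edgeR adjusted p = 0.0375), a call that was lost under DESeq2, under a fit of the contrast's own groups alone and without any 1 of SCR DMSO replicate 1, either SCR IFNb library or either IFNAR1sg DMSO library. Over all 15844 such sums, 40.2% were called lower and the median was -0.61. With the exon-sharing rows added, the sum of the whole gene rose in CPS1 (1.17 ± 0.09, edgeR adjusted p = 1.24e-18) and in HPD (1.30 ± 0.10, edgeR adjusted p = 3.18e-18), and ASS1 stood at 0.15 ± 0.10 (edgeR adjusted p = 0.186), where 16.1% of all sums were called higher. The direction of the result for a gene thus differed with the rows that were counted.

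**Figure D2:**
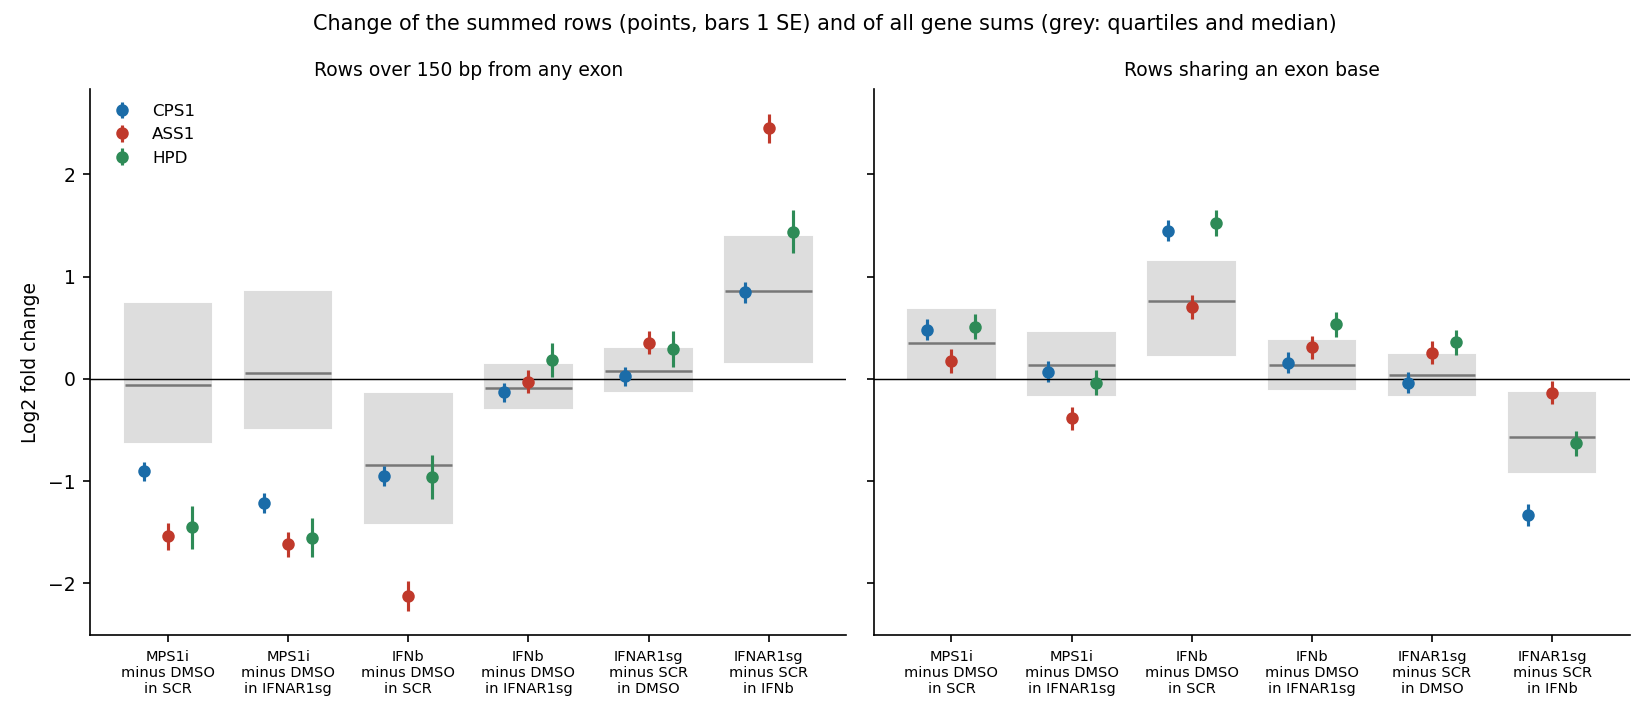
Points are log2 changes of the distal intronic and the exon-sharing sums of CPS1, ASS1 and HPD in 6 contrasts, with bars of 1 SE; grey marks give the quartiles and median of all gene sums. With IFNb in SCR the distal sums lie between -0.95 and -2.12 and the exon-sharing sums between 0.70 and 1.53, and in IFNAR1sg the distal sums lie between -0.13 and 0.19.

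In IFNAR1sg cells the distal sums did not pass the test with IFNb. CPS1 stood at 475 and 536 CPM against 562 and 545 in DMSO (-0.13 ± 0.09, edgeR adjusted p = 0.720). ASS1 stood at 177 and 195 CPM against 176 and 202 (-0.03 ± 0.11, edgeR adjusted p = 0.983), and HPD at 41.8 and 51.7 against 34.5 and 47.0 (0.19 ± 0.17, edgeR adjusted p = 0.814). The ASS1 and HPD groups overlapped, and the CPS1 groups did not. Of all distal sums, 0.626% were called lower. Among exon-sharing sums, of which 5.08% were called higher, that of HPD rose from 601 and 563 to 904 and 781 CPM (0.54 ± 0.12, edgeR adjusted p = 0.00247). This call was lost without IFNAR1sg DMSO replicate 2 or without IFNAR1sg IFNb replicate 1. CPS1 (0.16 ± 0.10, edgeR adjusted p = 0.435) and ASS1 (0.31 ± 0.11, edgeR adjusted p = 0.0932) did not pass the test.

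The genotypes were compared directly within each treatment. In DMSO none of the distal or exon-sharing sums of the 3 genes was called, with distal differences (IFNAR1sg minus SCR) of 0.03 ± 0.09 for CPS1, 0.36 ± 0.12 for ASS1 and 0.29 ± 0.17 for HPD (edgeR adjusted p = 0.980, 0.516 and 0.806), where 0.0285% of all distal and 0.217% of all exon-sharing sums were called higher. In IFNb, a comparison that uses no library of the contrast that chose the genes, the distal sums were higher in IFNAR1sg by 0.85 ± 0.10 for CPS1 (1.80-fold, edgeR adjusted p = 1.42e-13), 2.45 ± 0.14 for ASS1 (5.46-fold, edgeR adjusted p = 5.36e-35) and 1.44 ± 0.21 for HPD (2.71-fold, edgeR adjusted p = 1.04e-09). All distal sums had a median of 0.86, and 46.3% of them were called higher. The change of ASS1 exceeded that of 96.6% of distal sums, that of HPD 77.1% and that of CPS1 49.4%. The exon-sharing sums were lower in IFNAR1sg for CPS1 (-1.33 ± 0.10, edgeR adjusted p = 5.03e-17) and HPD (-0.63 ± 0.12, edgeR adjusted p = 1.31e-05), and ASS1 stood at -0.14 ± 0.11 (edgeR adjusted p = 0.320), where 46.4% of all were called lower and the median was -0.57, close to the value of HPD.

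The response to IFNb was also tested as a difference between genotypes (the SCR change minus the IFNAR1sg change). For the distal sums this was -0.82 ± 0.14 in CPS1 (edgeR adjusted p = 1.91e-07), -2.09 ± 0.19 in ASS1 (edgeR adjusted p = 2.30e-19) and -1.15 ± 0.27 in HPD (edgeR adjusted p = 2.90e-04), where 34.2% of all distal sums were called lower and their median was -0.77. The share of distal sums with a lower value was 48.0% for CPS1, 33.6% for HPD and 6.44% for ASS1, so that CPS1 lay close to the median gene. For the exon-sharing sums it was 1.29 ± 0.14 in CPS1 (edgeR adjusted p = 1.41e-10), 0.99 ± 0.17 in HPD (edgeR adjusted p = 5.81e-06) and 0.39 ± 0.16 in ASS1 (edgeR adjusted p = 0.0457), with 35.2% called higher and a median of 0.60. The ASS1 call was lost with library totals in place of scaling factors and without any 1 of 5 libraries (SCR DMSO replicate 2, SCR IFNb replicate 1, either IFNAR1sg DMSO library and IFNAR1sg IFNb replicate 2). Of all sums without exon-sharing rows 29.7% were called lower in this test, of sums of all rows 9.76% higher, and of distal to exon-sharing ratios 53.3% lower. The test also shares DMSO libraries with the contrast that chose the genes, so its intronic values are not independent of the choice.

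Row by row, exon-sharing and distal rows mostly went opposite ways with IFNb in SCR. Their ranges of log2 change overlapped in CPS1 (-2.27 to 2.28 and -2.51 to 2.49) and ASS1 (-2.04 to 0.86 and -6.63 to -0.60). In HPD they did not (1.26 to 1.65 and -1.28 to 0.35). With IFNb in SCR, 14 of the 18 exon-sharing rows of CPS1 rose and 2 fell, 4 of 7 in ASS1 rose and 2 fell, and all 4 tested rows of the 6 in HPD rose. Among all tested exon-sharing rows inside genes, 47.1% rose and 5.38% fell. Of the distal rows, 16 of 33 tested (of 236) fell in CPS1 and 2 rose, 6 of 11 (of 24) fell in ASS1, and 2 of 5 (of 30) fell in HPD, against a background of 28.6% lower and 3.77% higher. Of the near rows, 13 of 30 tested fell and 6 rose in CPS1, 11 of 17 fell in ASS1, and 1 of 8 fell and 1 rose in HPD, against 18.0% lower and 10.0% higher. In IFNAR1sg no row of the 3 genes fell with IFNb, where only 117 of all 89111 tested rows did, so the absence of a fall is not particular to the members. In the same cells 1 exon-sharing row of CPS1 and 2 of HPD rose, where 1.78% of exon-sharing rows did. In the same contrast DESeq2 called 6 rows higher.

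**Figure D3:**
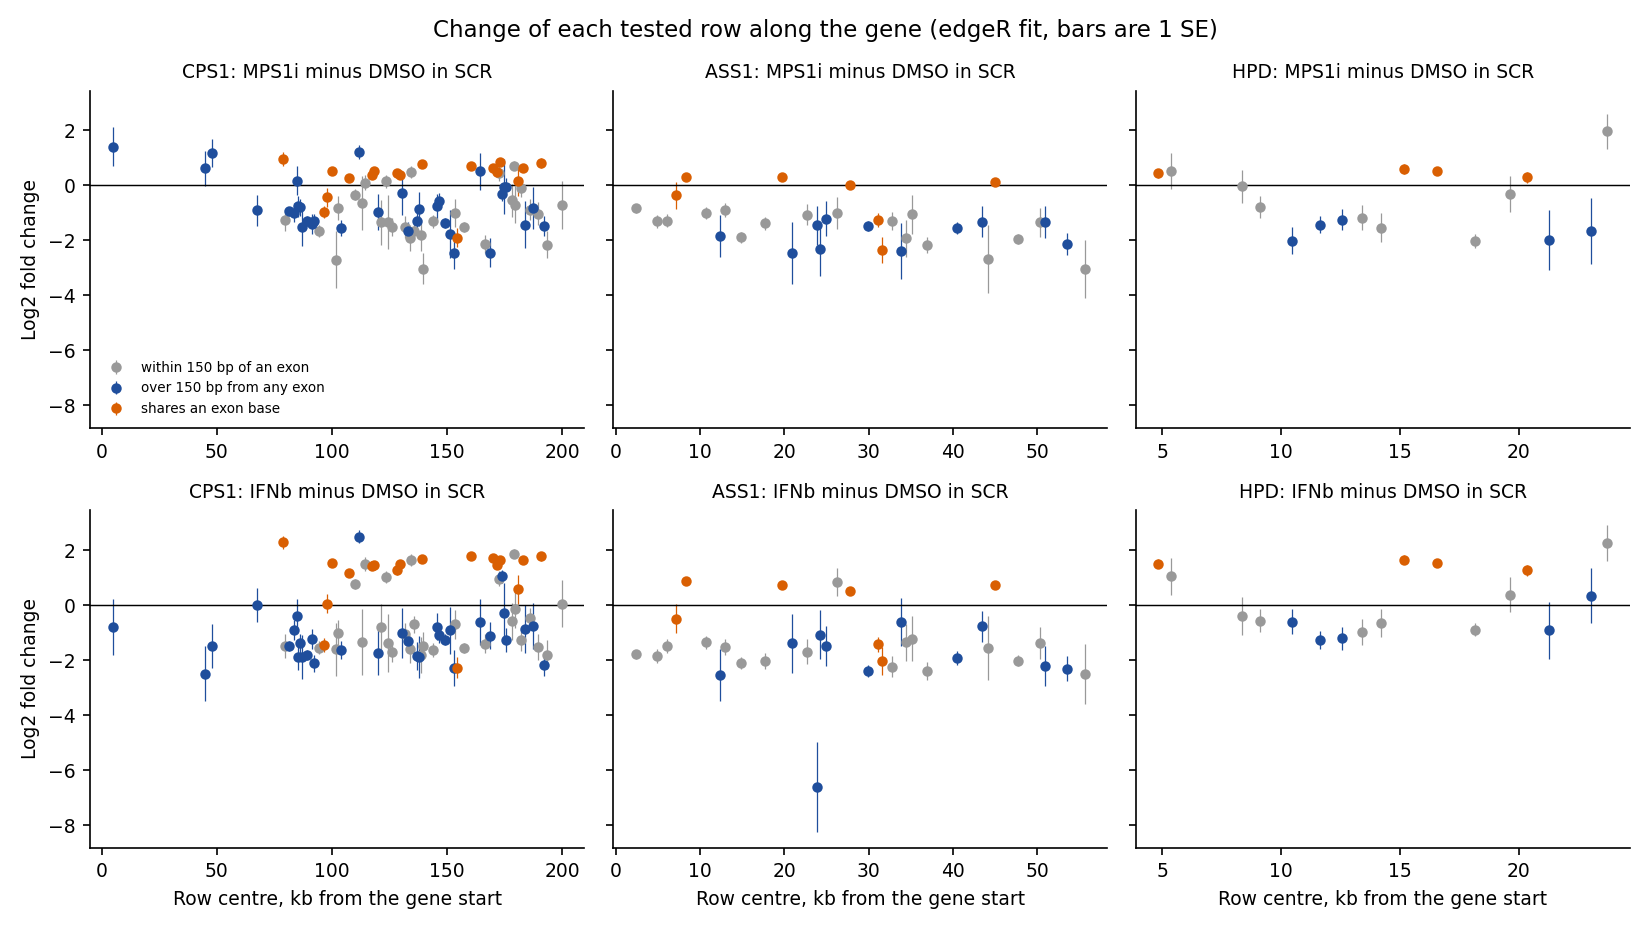
Each point is a tested row, placed by the distance of its centre in kb from the start of the gene. The y axis is its log2 change (± SE) for MPS1i and for IFNb against DMSO in SCR. Colours give the class of row. Exon-sharing rows sit mostly above 0 with IFNb, 14 of 18 in CPS1 being called higher, and distal rows mostly below it.

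The rows with the most reads are given here by class. In ASS1 the row chr9:130474065-130475743, 541 bp from the nearest exon, had 80.8 and 70.3 CPM in SCR DMSO and 15.2 and 13.2 in SCR IFNb (-2.41 ± 0.21, edgeR adjusted p = 9.06e-16 over all rows). The IFNAR1sg values were 94.9 and 112 CPM with DMSO against 91.3 and 107 with IFNb (-0.06 ± 0.17, edgeR adjusted p = 0.964), so that the groups overlapped there and not in SCR. In CPS1 the row chr2:210565045-210568958, 4340 bp from an exon, had 136 and 119 CPM in SCR DMSO and 29.0 and 42.5 in SCR IFNb (-1.83 ± 0.18, edgeR adjusted p = 2.71e-13). With MPS1i it had 46.7 and 56.6 CPM, also below DMSO. Its neighbour chr2:210557749-210560251, 890 bp from an exon, went the same way, from 91.5 and 84.2 CPM to 33.8 and 28.6 with IFNb (-1.49 ± 0.19, edgeR adjusted p = 1.04e-09). In HPD the Alu-rich row chr12:121844070-121846827, a near row 35 bp from an exon, had 46.7 and 48.0 CPM in SCR DMSO, against 7.73 and 14.9 with MPS1i and 23.0 and 27.8 with IFNb (-0.90 ± 0.23 for IFNb, edgeR adjusted p = 0.00170). The IFNb call of that HPD row was lost without SCR IFNb replicate 1.

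On the exon-sharing side, the CPS1 row chr2:210594606-210595175 is 570 bp long and shares 1 base with an exon. It had 660 and 667 CPM in SCR DMSO and 1861 and 1679 in SCR IFNb (1.42 ± 0.12, edgeR adjusted p = 1.11e-16), while the IFNAR1sg values were 605 and 569 with DMSO against 592 and 592 with IFNb. The row of 3 bases in HPD had 328 and 257 CPM in SCR DMSO and 928 and 764 in SCR IFNb (1.53 ± 0.14, edgeR adjusted p = 2.88e-15). The CPS1 row chr2:210656633-210656697, which shares no exon base but lies 1 bp from an exon, went with this class: it had 94.8 and 58.5 CPM in SCR DMSO and 308 and 251 in SCR IFNb (1.86 ± 0.17, edgeR adjusted p = 4.87e-15). In ASS1 the row chr9:130452333-130454305, with 2 exon bases, had 567 and 410 CPM against 958 and 814 (0.86 ± 0.13, edgeR adjusted p = 1.38e-07). The call of this ASS1 row was lost without the filter on low counts (0.86 ± 0.28, edgeR adjusted p = 0.272).

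Reads on the opposite strand of each body lay mostly in 1 long row per gene, which also ran beyond the body. Reads of such a row cannot be placed inside the body. Antisense rows wholly inside held 0 to 14 reads per library in CPS1 and 9 to 41 in HPD. ASS1 had 0 such rows. With IFNb in SCR their sums did not pass the test (CPS1 0.60 ± 1.37, edgeR adjusted p = 0.747, HPD 0.87 ± 0.44, edgeR adjusted p = 0.0964). The antisense sums below include every row sharing a base with the body. The strand setting of the counting was not given in the sources used here, so reads of a gene and of its antisense partner may not be separable. In CPS1 the antisense sum was 225 and 322 CPM in SCR DMSO and 843 and 839 in SCR IFNb (1.62 ± 0.10, edgeR adjusted p = 1.97e-30), and in HPD 32.3 and 47.8 against 92.6 and 123 (1.44 ± 0.15, edgeR adjusted p = 1.64e-15). The antisense sum of ASS1 was 191 and 240 CPM against 183 and 203 and overlapped (-0.16 ± 0.11, edgeR adjusted p = 0.235). In IFNAR1sg the antisense sums rose by 0.51 ± 0.10 in CPS1 (edgeR adjusted p = 6.02e-04) and 0.68 ± 0.15 in HPD (edgeR adjusted p = 0.00186). Sums on the opposite strand and past the end were tested together with the sums without exon-sharing rows, whose medians with IFNb were -0.61 in SCR and -0.07 in IFNAR1sg. Both IFNAR1sg calls were lost under DESeq2 and without IFNAR1sg DMSO replicate 2 or IFNAR1sg IFNb replicate 1. The CPS1 antisense sum already differed between the genotypes in DMSO, at 199 and 196 CPM in IFNAR1sg (-0.46 ± 0.10 for IFNAR1sg minus SCR, edgeR adjusted p = 0.0320), where 0.0316% of the sums without exon-sharing rows were called lower. That call was lost with DESeq2 size factors, under the DESeq2 test, with the contrast's groups alone and without any 1 library of 7: SCR DMSO replicate 2, either library of SCR MPS1i, SCR IFNb or IFNAR1sg DMSO. The test of the difference in IFNb response gave 1.11 for CPS1, 0.76 for HPD and -0.44 for ASS1 (edgeR adjusted p = 1.40e-10, 0.00247 and 0.0144), with 4.13% of those sums called higher. The ASS1 value lost its call under DESeq2 and without any 1 of SCR DMSO replicate 2, SCR IFNb replicate 1, IFNAR1sg DMSO replicate 1 and IFNAR1sg IFNb replicate 1, and the HPD value without SCR DMSO replicate 1 or SCR IFNb replicate 2 and with library totals. Within 10 kb past the end of the gene, rows on the gene's strand rose with IFNb in SCR by 1.39 ± 0.12 for CPS1 (edgeR adjusted p = 6.71e-20) and 0.62 ± 0.10 for ASS1 (edgeR adjusted p = 8.31e-08), and stood at 0.79 ± 0.35 for HPD (edgeR adjusted p = 0.0547). In IFNAR1sg the CPS1, ASS1 and HPD values were -0.14 ± 0.12, 0.34 ± 0.10 and 0.31 ± 0.36 (edgeR adjusted p = 0.779, 0.0539 and 0.842). The difference in IFNb response passed for CPS1 (1.53, edgeR adjusted p = 4.05e-13) and not for ASS1 or HPD (0.27 and 0.48, edgeR adjusted p = 0.130 and 0.506).

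Per kb of distal row, ASS1 had the highest level in DMSO: 10.7 and 9.13 CPM per kb in SCR, against 6.36 and 5.84 for CPS1 and 3.53 and 4.47 for HPD. The order in SCR IFNb was different, with CPS1 at 3.06 and 3.25 CPM per kb, ASS1 at 2.44 and 2.12 and HPD at 1.99 and 2.10. In IFNAR1sg IFNb, ASS1 was again highest with 11.9 and 13.0 CPM per kb, and CPS1 (5.33 and 6.01) and HPD (4.98 and 6.14) overlapped. The CPS1 length includes distal rows before the start at 210556538, which lowers its level per kb. Outside exon-sharing rows that stretch had 18.1 reads per kb, against 566 and 347 in the later stretches. The order of the genes without it was not examined. The repeats named in the rows also differed between members. Rows that name an Alu element held 16.1% of the reads outside exon-sharing rows in CPS1, 44.1% in ASS1 and 81.2% in HPD, against 30.7% over all genes.

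Over the 12 libraries the log2 CPM of the sums without exon-sharing rows had a Pearson r of 0.859 between CPS1 and HPD, 0.837 between ASS1 and HPD and 0.656 between CPS1 and ASS1. The genes were chosen because their introns were lower with MPS1i in these same libraries, which favours a positive r between them. The libraries also share their treatment groups and their scaling, so these are descriptions. Among 10327 gene sums the most alike were CCDC138 (0.990), ABCC2 (0.982) and NEIL3 (0.979) for CPS1, ENSG00000257767 (0.996), RPH3AL (0.993) and CLASRP (0.993) for ASS1, and LAMB1 (0.971), CCT4 (0.961) and EIF2AK1 (0.959) for HPD.

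Other genes of amino acid metabolism were read from lists of 100 genes, of which 83 had enough intronic reads to be tested as sums without exon-sharing rows. With IFNb in SCR, 52 of the 83 fell and 4 rose, with a median of -1.03 against -0.61 for all sums, of which 40.2% fell and 7.8% rose. In the urea cycle and the linked nitric oxide cycle, 4 of 6 measured genes fell, among them the aspartate-glutamate carriers SLC25A12 (-1.19 ± 0.20) and SLC25A13 (-0.90 ± 0.17). Of the genes of phenylalanine and tyrosine breakdown, the pathway of HPD, 2 of 7 fell and 1 rose. Of 8 genes of pyrimidine synthesis, to which carbamoyl phosphate leads, 5 fell, with CAD, which carries the cytosolic carbamoyl phosphate synthetase, at -2.46 ± 0.37.

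Serine, glycine and one-carbon genes fell in 10 of 12 cases, among them PSAT1 (-2.38 ± 0.24) and PHGDH (-1.76 ± 0.30), the enzymes that open serine synthesis, and MTHFD1L (-1.46 ± 0.11). The mitochondrial folate enzyme MTHFD2 rose (0.98 ± 0.20). Of the amino acid transporters 11 of 14 fell, including the cystine transporter SLC7A11, from a mean of 368 to 105 CPM (-1.81 ± 0.11), and its partner SLC3A2 (-1.66 ± 0.17). The glutamate transporter SLC1A1 rose (1.11 ± 0.21). Genes of glutamine, glutamate, aspartate and asparagine metabolism fell in 7 of 8 cases, polyamine and proline genes in 3 of 12, and genes of branched-chain and other amino acid breakdown in 10 of 16, with 1 rise. The other genes that rose, named after their values were seen, were QDPR (0.35 ± 0.13) and IDO1, which had a mean of 0.0968 CPM in SCR DMSO and 2.80 in SCR IFNb.

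In IFNAR1sg, 4 of the 83 genes fell with IFNb and 0 rose by the edgeR test (0 rose also at an unadjusted p under 0.05 and by DESeq2): PSAT1 (-0.93 ± 0.19), BCAT1 (-0.72 ± 0.17), SLC1A5 (-0.50 ± 0.14) and GPT2 (-1.15 ± 0.24). The 4 falls became 0 without IFNAR1sg DMSO replicate 2, and 2 without IFNAR1sg DMSO replicate 1 or IFNAR1sg IFNb replicate 1. The shares of all sums called were 0.726% lower and 0.581% higher. Between the genotypes in IFNb, 51 genes were higher and 3 lower in IFNAR1sg, where 41.1% of all sums were higher and 6.55% lower. With MPS1i, 31 genes fell and 11 rose in SCR and 29 fell and 9 rose in IFNAR1sg, where 22.1% and 19.7% of all sums fell and 21.8% and 26.4% rose. The 9 rises in IFNAR1sg became 4 without IFNAR1sg DMSO replicate 2. Members of the lists that differed most between the treatments in SCR were SAT1, a polyamine acetyltransferase (1.65 ± 0.25 with MPS1i and -0.26 ± 0.32 with IFNb), and OAT, ornithine aminotransferase (1.48 ± 0.32 and -0.22 ± 0.42).

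**Figure D4:**
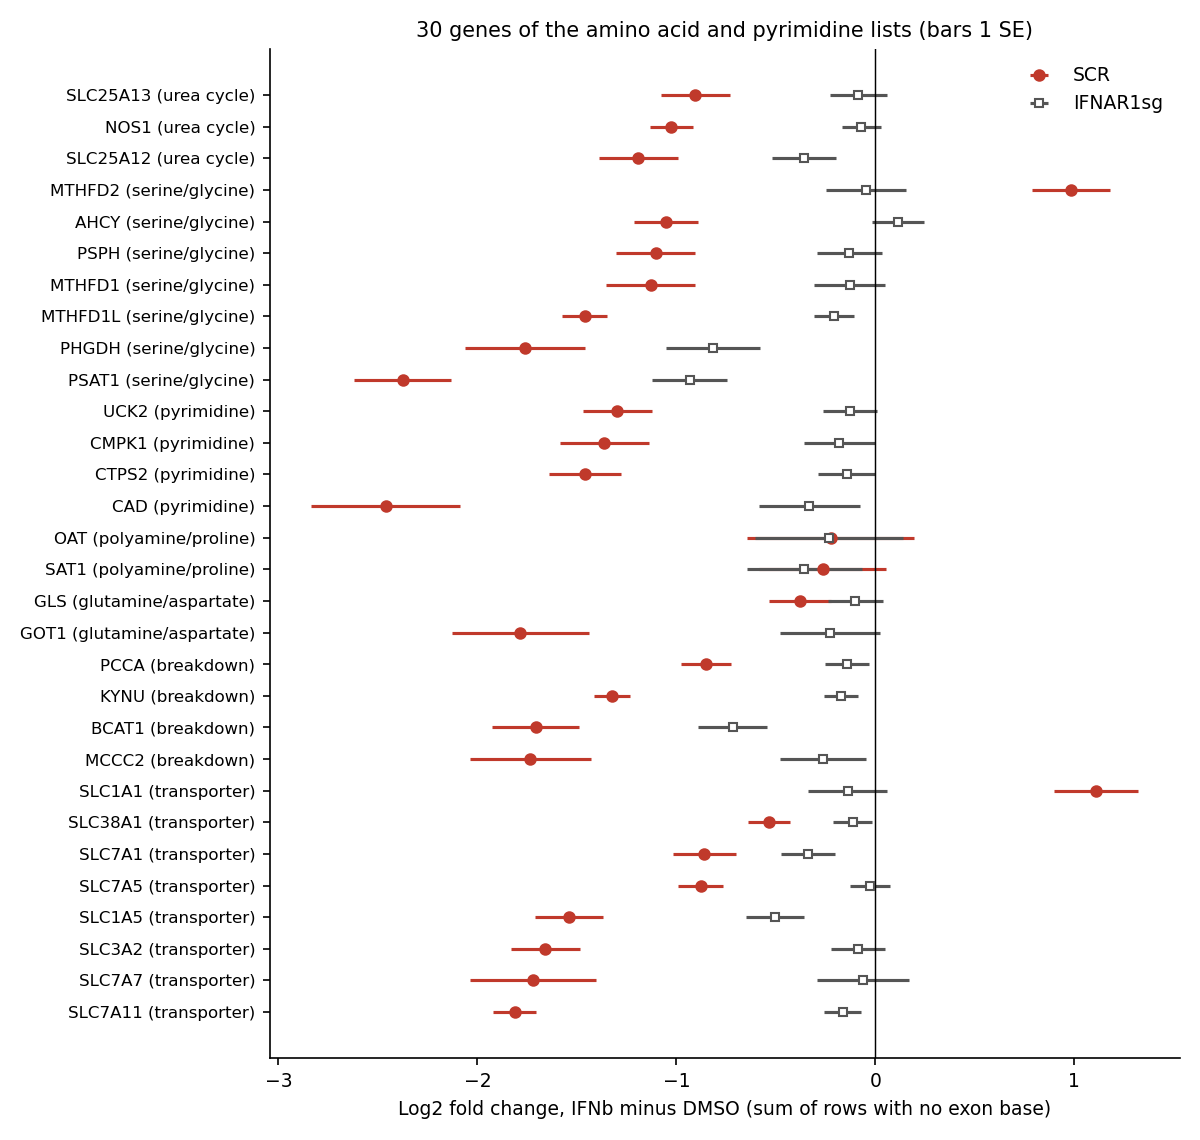
Log2 changes (± SE) with IFNb against DMSO for 30 genes of the amino acid lists, in SCR and in IFNAR1sg. In SCR the values reach from -2.46 for CAD to 1.11 for SLC1A1, and in IFNAR1sg PSAT1, BCAT1 and SLC1A5 are the genes shown that passed the test.

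The cells were compared with lists of markers, as sums of rows lying wholly inside a gene body. Of 5254113 rows in the table, only 19268 shared an exon base. A gene with little intron can therefore lack reads at any level of expression, and a missing read does not show that a gene was silent. Of 14 lung epithelium genes 6 were tested, led by KRT8 with 173625 reads, whereas NKX2-1, SFTPA2 and KRT19 had none. Of 15 hepatocyte genes 3 were tested (FGA, FGB and FGG), APOA1, APOA2, APOC3 and HP had no read and ALB had 12 reads in all. The hepatocyte list summed to 13.6 to 14.2 CPM in SCR DMSO, to 34.9 to 36.3 after MPS1i and to 29.7 to 37.9 with IFNb. The sum of the lung epithelium list was also higher, with 2077 to 2222 CPM in SCR DMSO, 3502 to 3921 after MPS1i and 4705 to 5177 with IFNb. Most of it was KRT8, with 2125 and 1992 CPM in SCR DMSO and 5094 and 4618 in SCR IFNb. KRT18 was also higher with IFNb. CDH1 was lower (34.2 and 34.1 to 13.0 and 8.65 CPM), as was KRT7 (21.7 and 18.2 to 10.0 and 15.8), and EPCAM and MUC1 overlapped. NKX2-1, NAPSA and the surfactant genes were not tested. Of 11 liver-enriched transcription factors 5 were tested, among them HNF4A, FOXA1 and NR1H4, CEBPA and CEBPB had no read, and the list summed to 111 to 112, 128 to 141 and 149 to 169 CPM in the same 3 groups. The fibroblast list, with 3 of 10 genes tested and COL1A2 without a read, summed to 2.90 to 4.83 CPM in SCR DMSO, compared with 27.5 to 28.7 after MPS1i. The immune list, with 3 of 12 tested and MS4A1, CD68 and NKG7 without a read, summed to 2.50 to 2.90 and 7.77 to 10.2 CPM. The part of these lists in the members' values was not tested.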

How the data were processed

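J2-bound RNA was measured in 12 libraries. The authors deposited 1 table of raw counts per stranded row for all libraries, without normalization. Per the submitters' processing notes, the tools included STAR, HOMER, featureCounts, cutadapt, Trimmomatic and Trim Galore, with the build GRCh38 (hg38); versions, strand settings and the treatment of reads with several matches were not given in the sources used here. Rows inside a GENCODE gene body on its strand were summed per gene without exon-sharing rows (the planned main sum) and with them; sums of exon-sharing rows alone, distal sums (over 150 bp from an exon) and their log2 ratio were added after the data were seen. Sums and 89111 rows passing filterByExpr (minimum count 10, total 15) were tested in 1 fit of the 6 groups with edgeR 4.0.16 (quasi-likelihood, TMM factors, 6 residual degrees of freedom), ratios with limma 3.58.1 (prior count 2), at an adjusted p of 0.05. DESeq2 1.42.0, other scalings, no filter, a replicate block, the groups of a contrast alone and leaving out each library were alternatives. CPM use TMM-scaled totals. The labels do not say that libraries of a group came from separate cultures, so p-values measure only the spread between these libraries. In edgeR that spread was mostly pooled over all sums, with prior degrees of freedom of 158 for distal and 56.0 for exon-sharing sums. Members, lists and tests were chosen with earlier results of these data known. Named rows are the 3 without an exon base and the 2 exon-sharing rows of each gene with the highest mean CPM, and named list genes the 30 with the smallest p among those called in any contrast; exceptions are stated. Genes named as alike have the highest Pearson r among sums with a mean of at least 5 CPM. Scripts were tested on simulated data. Some genes of the lists and 1 motif searched are not reported here.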

Additional observations from a re-analysis of the deposited data

Results flagged for a closer look

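The change with IFNb differed between SCR and IFNAR1sg by the test of the difference itself (SCR change minus IFNAR1sg change, log2) in 17 values of the 3 genes. Distal intronic sums differed by -0.82 in CPS1, -2.09 in ASS1 and -1.15 in HPD, and sums without exon-sharing rows by -1.79 in ASS1 and -0.96 in HPD. Exon-sharing sums differed by 1.29 in CPS1, 0.39 in ASS1 and 0.99 in HPD, and sums of all rows by 1.06 in CPS1 and 0.81 in HPD. The distal to exon-sharing ratio differed by -2.11 in CPS1, -2.48 in ASS1 and -2.14 in HPD; with each library centred on its median gene these were -0.72, -1.09 and -0.75 and all 3 calls were lost (limma adjusted p = 0.123, 0.0713 and 0.357). Antisense sums differed by 1.11 in CPS1, -0.44 in ASS1 and 0.76 in HPD, and the sum past the end of CPS1 by 1.53. The medians over all sums were -0.77 (distal), -0.56 (without exon-sharing rows), 0.60 (exon-sharing), -0.27 (all rows) and -1.41 (ratio), and the CPS1 distal value lay close to its median. Over all genes 34.2% (distal), 29.7% (without exon-sharing rows) and 53.3% (ratio) were called lower. Called higher were 35.2% (exon-sharing), 9.76% (all rows) and 4.13% (without exon-sharing rows). The calls of the ASS1 exon-sharing sum and the ASS1 and HPD antisense sums were lost under some alternatives. All 17 rest on the 2 SCR IFNb libraries, which stood apart in rows with reads, and the part of that in these values was not tested. All 17 also share DMSO libraries with the contrast that chose the genes, so the intronic values are not independent of the choice.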

How the results depend on the processing

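Of 147 results of a comparison, 75 kept their direction and side of the threshold under every alternative run, as did 911 of 981 values from alternatives other than leaving out 1 library and 1670 of 1764 from leaving out 1. Library totals in place of TMM factors shift the median by -0.32 for IFNb in SCR, -0.17 and -0.13 for MPS1i in SCR and IFNAR1sg, 0.29 for IFNAR1sg minus SCR in IFNb and -0.28 for the interaction. The causes of the changes below were not tested. Depth limits HPD most, with 1744 distal reads in all.

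With library totals, MPS1i values in SCR were -0.85 (CPS1) and -1.49 (ASS1) without exon-sharing rows, 0.091, -0.40 and 0.13 (CPS1, ASS1, HPD) with them, 0.31, 0.0054 and 0.34 for exon-sharing sums, and -1.07 and -1.71 (CPS1, ASS1) for distal sums. In IFNAR1sg they were -1.11 and -1.59, -0.28 and -0.84, -0.060 (reversed) and -0.52, and -1.35 and -1.75 for CPS1 and ASS1 in the same order. Also with library totals, ASS1 with all rows reversed for IFNb in SCR (-0.17), its interaction passed (-0.31), HPD with all rows lost IFNAR1sg minus SCR in IFNb (-0.16), the ASS1 exon-sharing sum reversed there (0.15) and lost its interaction (0.11), the CPS1 interaction without exon-sharing rows passed (-0.45), and the ASS1 antisense sum passed for IFNb in SCR (-0.48). The ASS1 rows 130452333 to 130454305 and 130471515 to 130474018 reversed for IFNAR1sg minus SCR in IFNb (0.088 and 0.20).

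CPS1 without exon-sharing rows lost its calls for IFNb in SCR (-0.17 with DESeq2 size factors and with the DESeq2 test, -0.19 with the contrast's groups alone) and for IFNAR1sg minus SCR in IFNb (0.15, 0.15 and 0.20). With DESeq2 size factors and the DESeq2 test, ASS1 with all rows lost IFNAR1sg minus SCR in IFNb (0.22 in both) and its interaction reversed (0.034 in both). The HPD sum past the end passed for IFNb in SCR with DESeq2 size factors (0.82), and the antisense sums of CPS1 and HPD lost IFNb in IFNAR1sg with the DESeq2 test (0.48 and 0.65). The ASS1 exon-sharing sum passed for IFNb in IFNAR1sg with the contrast's groups alone (0.30), and HPD with all rows passed for IFNAR1sg minus SCR in DMSO without a filter (0.36). With the ratio centred per library, MPS1i in SCR gave -0.80, -1.12 and -1.33, MPS1i in IFNAR1sg -0.97 and -0.90 (CPS1, ASS1), HPD lost IFNb in SCR (-0.93) and IFNAR1sg minus SCR in IFNb (0.63), and the interactions were lost (-0.72, -1.09 and -0.75). Member rows called higher for IFNb in IFNAR1sg numbered 3, against 6 with DESeq2, 1 without a filter and 9 with the contrast's groups alone; interaction calls without a filter were 24 lower and 12 higher.

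Replicate numbers are shared across groups. In sums without exon-sharing rows, deviations of same-numbered libraries correlated at -0.08 to 0.12. In the exon-sharing sums of CPS1, ASS1 and HPD, however, replicate 1 lay above replicate 2 in every group. Whether same-numbered libraries were paired was not given, and the low correlations cannot decide it. With the replicate block, ASS1 with all rows passed for IFNb in SCR (0.16), HPD with all rows passed for IFNAR1sg minus SCR in DMSO (0.37), as did the ASS1 and HPD exon-sharing sums (0.26 and 0.37), and the ASS1 exon-sharing sum passed for IFNb in IFNAR1sg (0.31); with the block, 9 member rows were called higher for IFNb in IFNAR1sg and 1 for IFNAR1sg minus SCR in DMSO.

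Leaving out each library in turn changed a call, a direction or a described value for the following results, given as ranges. For MPS1i in SCR they were -0.74 to -0.64 without exon-sharing rows of CPS1, -1.41 to -1.23 without exon-sharing rows of ASS1, -0.35 to -0.12 with all rows of ASS1, 0.025 to 0.32 for exon-sharing sums of ASS1, -0.98 to -0.85 for distal sums of CPS1 and -1.66 to -1.42 for distal sums of ASS1. For MPS1i in IFNAR1sg they were -1.94 to -1.31 without exon-sharing rows of HPD, -0.21 to -0.12 with all rows of CPS1, 0.0028 to 0.10 for exon-sharing sums of CPS1, -0.20 to 0.073 for exon-sharing sums of HPD, -1.90 to -1.31 for distal sums of HPD, -1.42 to -1.02 for the ratio of ASS1 and -1.90 to -1.06 for the ratio of HPD. For IFNb in SCR they were -0.24 to -0.14 without exon-sharing rows of CPS1, -0.31 to 0.011 for antisense sums of ASS1, 0.56 to 1.05 past the end of HPD and 0.047 to 0.28 with all rows of ASS1. For IFNb in IFNAR1sg they were -0.086 to 0.030 without exon-sharing rows of CPS1, 0.30 to 0.70 for antisense sums of CPS1, 0.52 to 0.83 for antisense sums of HPD, 0.43 to 0.56 with all rows of HPD, 0.43 to 0.64 for exon-sharing sums of HPD, -0.12 to 0.083 for distal sums of ASS1 and -0.0094 to 0.44 for distal sums of HPD. For IFNAR1sg minus SCR in DMSO they were -0.018 to 0.086 without exon-sharing rows of CPS1, -0.055 to 0.019 with all rows of CPS1, 0.26 to 0.48 with all rows of HPD, -0.041 to 0.094 for distal sums of CPS1, -0.027 to 0.21 for the ratio of ASS1 and -0.40 to 0.21 for the ratio of HPD. For IFNAR1sg minus SCR in IFNb they were 0.14 to 0.26 without exon-sharing rows of CPS1 and 0.19 to 0.36 with all rows of ASS1. For the interaction they were -0.14 to 0.095 with all rows of ASS1 and 0.25 to 0.55 for exon-sharing sums of ASS1. Member rows called higher ranged from 0 to 9 for IFNb in IFNAR1sg and from 0 to 2 for IFNAR1sg minus SCR in DMSO. The ASS1 row 130471515 to 130474018 reached 0.016 for IFNAR1sg minus SCR in IFNb without SCR IFNb replicate 1, and the ASS1 antisense row 130444917 to 130508814 reached 0.011 for IFNb in SCR without SCR DMSO replicate 2. The CPS1 antisense sum for IFNAR1sg minus SCR in DMSO was -0.45 with DESeq2 size factors and with the DESeq2 test, -0.47 with the contrast's groups alone and without both SCR IFNb libraries, and -0.70 to -0.19 with 1 library left out; there the ASS1 and HPD antisense sums ranged from -0.25 to 0.063 and from -0.25 to 0.30, the latter with -0.088 without IFNAR1sg DMSO replicate 1. Antisense interactions were -0.38 with DESeq2 size factors and the DESeq2 test in ASS1 and 0.48 with library totals in HPD, and ranged from -0.59 to -0.28 in ASS1 and 0.50 to 1.05 in HPD. Past the end of ASS1 the interaction ranged from 0.15 to 0.41 and reversed with library totals (-0.0042). List genes called ranged from 4 to 9 higher for MPS1i in IFNAR1sg, from 0 to 6 lower for IFNb in IFNAR1sg and from 2 to 4 higher for the interaction.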
